A study of Mus musculus with 8 samples.

Results

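Epithelial cells hold together through desmosomes, adherens junctions and tight junctions, and 56 genes named after families of their components were measured in keratinocytes with and without Nfkbiz. Not every gene so named is a junction component. The genes were searched by symbols of the desmoglein, desmocollin, cadherin, protocadherin, claudin, zonula occludens, occludin, plakophilin, plakoglobin, catenin, desmoplakin, envoplakin, periplakin and nectin families. No desmocollin, occludin, desmoplakin or nectin gene was among the 56. The genes were taken by symbol from 57 probe sets with 1 gene symbol, and they make up 56 of the 9294 genes of the table. Each gene was represented by the probe set with the highest mean over the 8 arrays. Only Cdh2 had 2 probe sets.

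Gene expression was measured on 8 one-colour arrays of biotin-labelled total RNA from cultured mouse keratinocytes of the C57BL/6 strain. The KO group was 4 arrays of Nfkbiz KO keratinocytes, which lack the nuclear NF-kB regulator IkBz, and the WT group was 4 arrays of wildtype keratinocytes. Both groups had been transduced with v-rasHa, an activated viral Hras oncogene, 3 days earlier and were kept in regular medium, so that no array shows cells without the oncogene. How the knockout was made, and whether the replicates came from separate animals, is not given in the sources used here, so p-values measure only the spread between these arrays. Values are the deposited log2 signals of probe sets, and a log2 fold change is KO minus WT with its moderated standard error (SE).

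In the desmosome, transmembrane desmogleins and desmocollins bind those of the next cell, and inside the cell plakoglobin, plakophilins, desmoplakin, envoplakin and periplakin tie them to keratin filaments. Adherens junctions use classical cadherins, which catenins link to actin. Tight junctions seal the space between cells with strands of claudins, held by scaffold proteins such as ZO-1. In epidermis, desmoglein 1 belongs to the suprabasal layers, while the functional tight junctions lie in the granular layer.

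The claudin genes Cldn4, Cldn6 and Cldn7 were the members that rose in the KO cells, and the desmoglein genes Dsg1a and Dsg1b, the envoplakin gene Evpl and the ZO-1 gene Tjp1 were those that fell. The changes were small: between 1.14-fold for Cldn4 and 1.53-fold for Cldn6. In limma with Benjamini-Hochberg adjustment over the whole table, 7 of the 56 genes (12.5%) had an adjusted p below 0.05, where 8.9% of all genes did. In detail, 3 members rose, with 4.47% of all genes higher, and 4 fell, with 4.43% of all genes lower. The values of both groups did not overlap for 8 members (14.3%), against 15.9% of all genes. These shares are near those of the whole table, and the median log2 fold change was -0.03 over the members and -0.01 over all genes. Most members gave weak signals: 17 had means below 3.35, the lower quartile of the probe sets, and 18 lay between it and the median of 4.53, and none of these passed in limma, with 3 of the 35 at an unadjusted p below 0.05 (adjusted, 1.09% and 3.05% of all genes in those bands did). Between the median and the upper quartile of 6.92, 2 of 9 members passed (11.8% of all genes there), and above it 5 of 12 passed (17.3% of all genes there). At an unadjusted p below 0.05 in limma, 920 of the 9294 genes were higher and 1012 lower, and 4 and 8 of the members. The table has no detection calls, so a weak signal could not be told from background. Desmoplakin, the desmocollins, Cdh3, Ctnnb1, Ocln, Cldn1 and the nectins were not analysed here. Neither Nfkbiz nor Hras was among the genes analysed here, so the knockout and the oncogene could not be checked in these arrays.

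**Figure D1:**
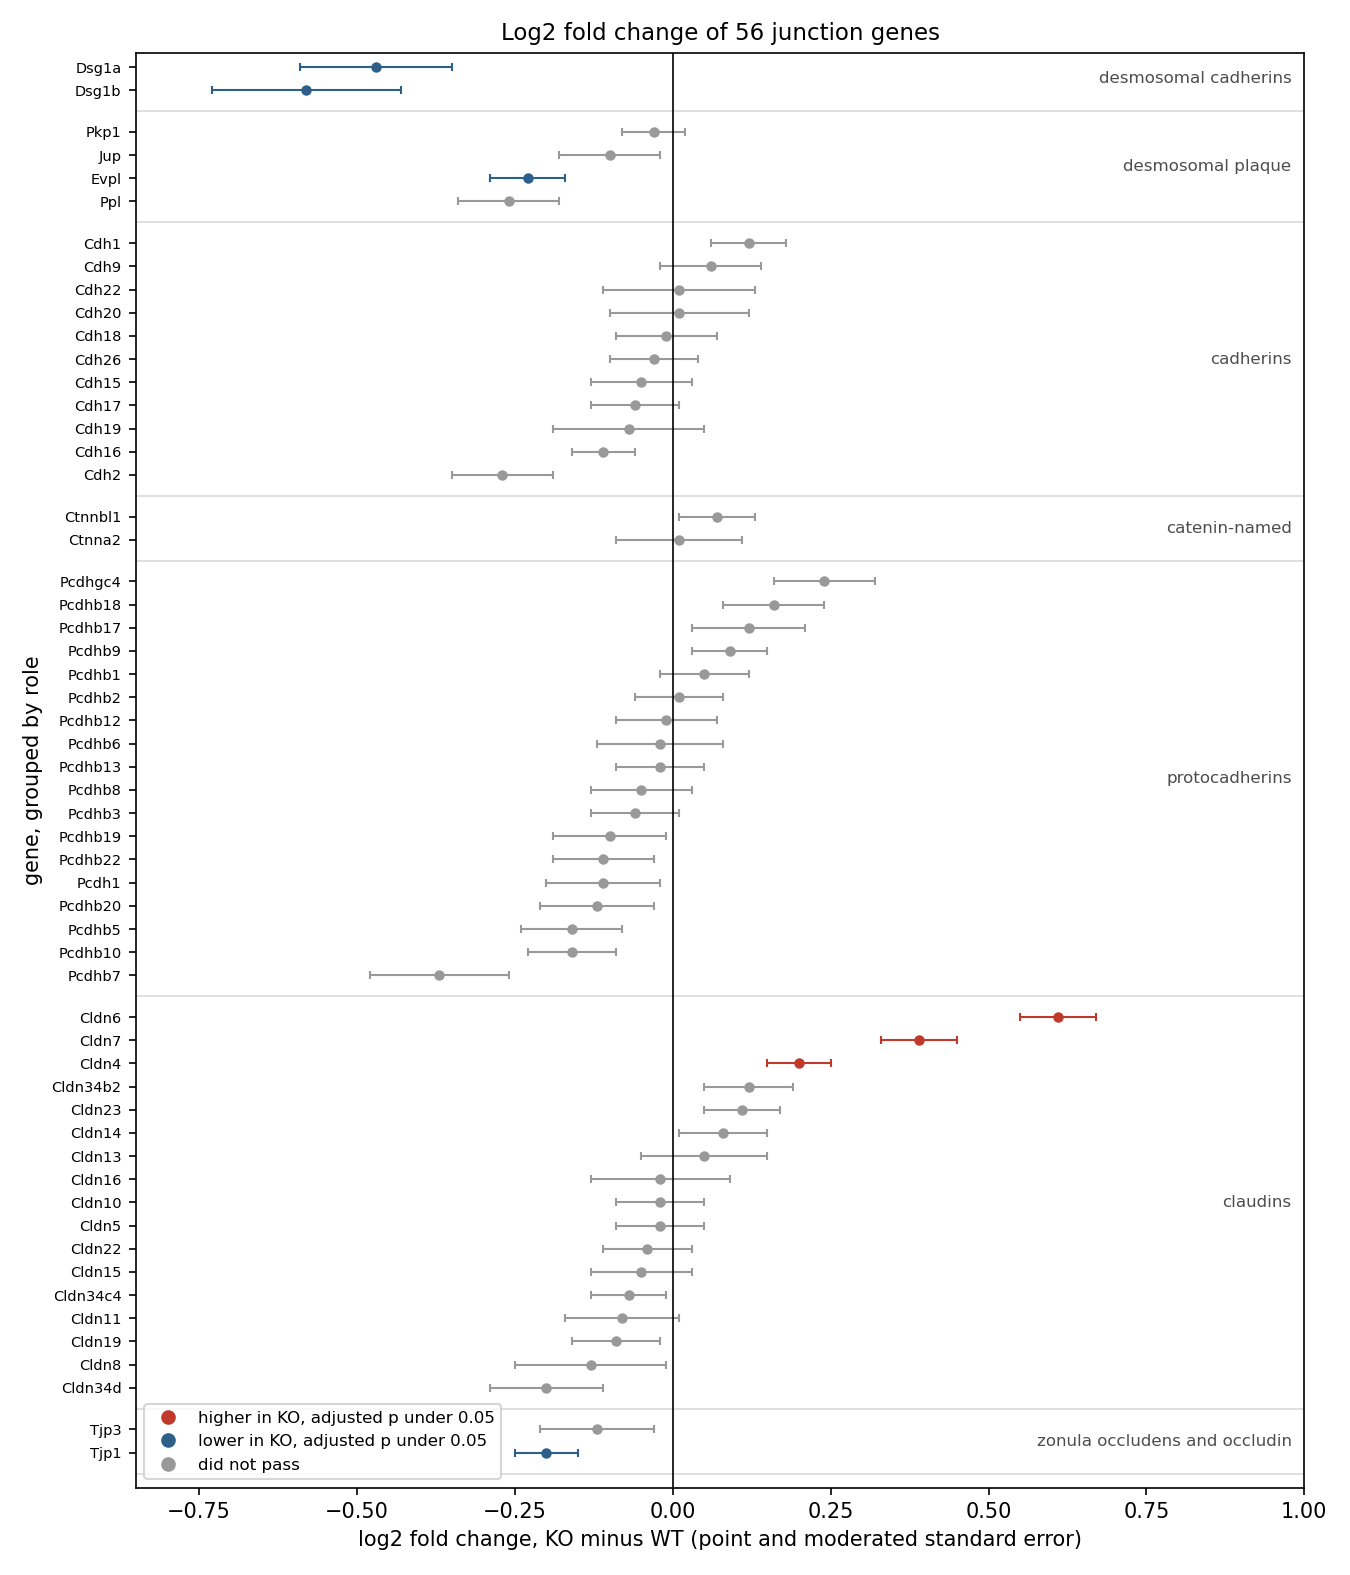
Log2 fold change of each of the 56 genes, KO minus WT (horizontal axis), grouped by role on the vertical axis. Points are the limma estimates and bars the moderated SE, with red for the 3 genes that rose, blue for the 4 that fell and grey for the 49 that did not pass. The 3 red claudins stand at 0.20 to 0.61 and both desmogleins at -0.58 and -0.47.

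The promoters of 3 claudin genes are shown because these were the members that rose. Whether the 3 genes share a control was not tested. Windows run from 250 bases before the RefSeq start to 50 bases after it (build GRCm38.p6) and are written in the direction of the gene. Capitals mark CACCTG, on either strand, the E-box type that Snail and ZEB repressors bind, and TGACGTCA, the cyclic AMP response element. The Cldn4 window is chr5:134946885-134947184 on the minus strand, the Cldn6 window chr17:23679115-23679414 on the plus strand and the Cldn7 window chr11:69965171-69965470 on the plus strand.
Cldn4: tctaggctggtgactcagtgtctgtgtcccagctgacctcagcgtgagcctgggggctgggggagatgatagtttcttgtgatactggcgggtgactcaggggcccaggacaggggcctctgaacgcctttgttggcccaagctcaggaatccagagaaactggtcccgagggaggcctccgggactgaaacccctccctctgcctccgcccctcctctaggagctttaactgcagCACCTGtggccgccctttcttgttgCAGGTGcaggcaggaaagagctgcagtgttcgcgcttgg
Cldn6: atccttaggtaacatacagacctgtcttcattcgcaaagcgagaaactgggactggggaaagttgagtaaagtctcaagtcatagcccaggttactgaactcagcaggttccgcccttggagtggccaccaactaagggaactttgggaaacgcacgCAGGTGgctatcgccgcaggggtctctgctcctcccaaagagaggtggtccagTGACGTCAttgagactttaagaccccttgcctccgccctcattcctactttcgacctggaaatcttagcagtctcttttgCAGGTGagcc
Cldn7: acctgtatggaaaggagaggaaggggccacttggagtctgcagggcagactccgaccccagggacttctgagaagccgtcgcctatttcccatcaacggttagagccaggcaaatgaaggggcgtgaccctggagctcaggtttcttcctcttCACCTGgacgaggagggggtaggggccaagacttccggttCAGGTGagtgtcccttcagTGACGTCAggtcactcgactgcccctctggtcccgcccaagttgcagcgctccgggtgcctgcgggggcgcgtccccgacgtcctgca

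Each of these 3 windows held 2 copies of CACCTG in either direction, which 20.2% of the 32851 RefSeq promoter windows hold at least once. In Cldn4 they began 14 bases before and 11 bases after the start, in Cldn6 at -93 and 40, and in Cldn7 at -97 and -57. The letters TGACGTCA stood at -40 in Cldn6 and at -38 in Cldn7, and 1.79% of all windows hold them. The Cldn7 window that is not shown, chr11:69964529-69964828 on the plus strand, held neither. The window of Ildr1, a tight junction gene that fell, held 1 copy, at -88, and that of Tjp1 held none. The windows of Marveld2, which rose, overlap, and the copy in them, at 43 and at 16, is the same copy. In all, 10 motifs were searched on both strands after the expression values had been seen. The AP-1 motif TGANTCA (7.81% of all windows) occurred in Cldn4, with 2 copies, and the grainyhead motif AACCGG (6.83%) in Cldn7, with 1 copy. Of the Tjp1 window, the GC box CCCCGCCC (17.6%) had 2 copies, while the 4 motifs named before it were not found there. The longer grainyhead motif AACCGGTT (0.146%), which overlaps the short one, its relaxed form AACCNGTT (2.09%), the TATA box letters TATAAA (13.6%) and the kB consensus (4.51%) were not found in the windows of Cldn4, Cldn6, Cldn7 or Tjp1. The general E-box CANNTG, which contains CACCTG, is in 72.3% of all windows. A match is a run of letters and no evidence of binding. RefSeq windows were matched by symbol for 24 of the 56 members, of which 4 passed the test. Windows of the members that did not pass were searched only as part of all windows. The share of windows with 2 copies of CACCTG was not counted.

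Beside these genes, markers of other cell types were compared in the same arrays. Of 12 listed keratinocyte markers, 8 were measured, and the basal keratin gene Krt5 had means of 13.29 in KO and 13.42 in WT arrays, far above the upper quartiles of the arrays. Col17a1 fell and the other 7 keratinocyte markers did not pass, and the summed linear signal of the list was 21900 to 23300 in KO and 23900 to 24600 in WT arrays. Of 13 fibroblast markers 7 were measured, of which 6 fell and Postn rose, with sums of 621 to 707 in KO and 947 to 1030 in WT arrays. Of 8 melanocyte markers 3 were measured, Pmel fell and 2 did not pass, with sums of 2180 to 2690 in KO and 2820 to 2950 in WT arrays. Of 9 leukocyte markers 8 were measured and Tyrobp fell, with sums of 235 to 251 in KO and 249 to 289 in WT arrays. None of 7 measured endothelial markers, of 8 listed, passed in limma (1 was lower at an unadjusted p below 0.05), with sums of 135 to 155 in KO and 149 to 157 in WT arrays. Of 6 Merkel cell markers 4 were measured, and Krt18, also a keratin of simple epithelia, rose while Krt20, Atoh1 and Sox2 did not pass, with sums of 3260 to 3510 in KO and 2000 to 2230 in WT arrays. Nearly all of these sums was Krt18, with log2 means of 11.70 in KO and 11.02 in WT arrays. Krt20, Atoh1 and Sox2 had mean log2 signals of 3.54, 4.67 and 2.94. No marker was listed at 0. In bulk RNA, fewer cells of a type and less RNA per cell cannot be told apart.

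Desmogleins came first among the falls. Dsg1a and Dsg1b are mouse copies of the gene of desmoglein 1, the suprabasal desmosomal cadherin that the autoantibodies of pemphigus foliaceus and the staphylococcal exfoliative toxins target. Dsg1a had log2 signals of 6.03, 6.54, 6.48 and 6.33 in KO arrays, against 6.76, 6.94, 6.97 and 6.59 in WT arrays. Every KO value lay below every WT value, and the nearest pair, KO replicate 2 and WT replicate 4, lay close together. The log2 fold change of Dsg1a was -0.47 ± 0.12 (SE, n = 4 per group; limma adjusted p = 0.03).

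Dsg1b had 6.69, 7.51, 7.17 and 7.24 in KO arrays, against 7.67, 7.78, 7.94 and 7.52 in WT arrays. The groups again did not overlap, but the highest KO value and the lowest WT value differed only in the second decimal. Dsg1b averaged 7.15 ± 0.34 in KO and 7.73 ± 0.18 in WT arrays (SD, n = 4 per group), with a log2 fold change of -0.58 ± 0.15 (SE; limma adjusted p = 0.0374). KO replicate 1 was the lowest of the KO arrays for both genes, and WT replicate 4 the lowest of the WT arrays. Dsg1a and Dsg1b are closely related copies whose probe sets may share targets, which was not checked. Their values can therefore not be taken as independent of each other.

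Each desmoglein call was lost when any of several single arrays was left out, in fits on fewer arrays. Without single arrays 288 to 350 of all genes rose and 305 to 352 fell, in place of 415 and 412. Dsg1b kept its call without KO replicate 1, with a log2 fold change of -0.42 (limma adjusted p = 0.0468). Without KO replicate 1, Dsg1a had a log2 fold change of -0.36 (limma adjusted p = 0.0549). Its adjusted p by limma was 0.0711 without KO replicate 4, 0.0526 without WT replicate 1, 0.083 without WT replicate 2 and 0.081 without WT replicate 3. For Dsg1b the limma adjusted p was 0.0835 without KO replicate 3, 0.0656 without KO replicate 4, 0.0643 without WT replicate 1, 0.0879 without WT replicate 2 and 0.0987 without WT replicate 3. Its log2 fold change lay between -0.70 and -0.42 over the 16 alternatives, so the direction was kept, and the limma adjusted p ranged over 0.0018 to 0.0987 for Dsg1b and 0.00209 to 0.083 for Dsg1a.

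Among the 4 desmosomal plaque genes, Evpl fell and Ppl, Jup and Pkp1 did not pass. Envoplakin and periplakin, the products of Evpl and Ppl, are partner plakins that also enter the cornified envelope. Evpl had 8.02, 8.17, 8.07 and 8.08 in KO arrays, against 8.24, 8.32, 8.25 and 8.45 in WT arrays. The groups did not overlap, and the log2 fold change was -0.23 ± 0.06 (SE, n = 4 per group; limma adjusted p = 0.0408).

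Ppl had 8.75, 8.93, 8.96 and 9.09 in KO arrays, against 9.09, 9.16, 9.23 and 9.27 in WT arrays. KO replicate 4 reached the lowest WT array, and the other KO values lay below all WT values. The log2 fold change of Ppl was -0.26 ± 0.08, with a limma adjusted p of 0.0622, of the same size as that of Evpl but just outside the threshold. Its adjusted p was 0.0457 by limma with the lowest 25% of genes left out, and 0.00449 to 0.148 over the 16 alternatives.

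Jup encodes plakoglobin, the armadillo protein shared by desmosomes and adherens junctions. It had 8.65, 8.77, 8.95 and 8.82 in KO arrays, against 8.77, 8.86, 8.89 and 9.07 in WT arrays, with overlapping groups. Its log2 fold change was -0.10 (95% confidence interval -0.28 to 0.07; limma adjusted p = 0.535). Pkp1, the gene of plakophilin 1, a plaque protein of stratified epithelia, had 11.26, 11.35, 11.31 and 11.30 in KO arrays, against 11.24, 11.36, 11.37 and 11.35 in WT arrays. All 8 values lay close together, and its log2 fold change was -0.03 (95% confidence interval -0.14 to 0.09; limma adjusted p = 0.854).

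All 6 measured desmosome genes had their lowest KO value in KO replicate 1, and that array held the lowest of the KO values for 24.2% of all genes. Among the WT arrays, replicate 1 was the lowest for Pkp1, Jup, Evpl and Ppl, and replicate 4 for Dsg1a and Dsg1b. How often each WT array was the lowest over all genes was not counted. The SD of the KO values of Dsg1b was 0.34 with KO replicate 1 and 0.18 without it. Evpl lost its call without KO replicate 1 (limma adjusted p = 0.111), KO replicate 3 (0.0977), KO replicate 4 (0.0871), WT replicate 2 (0.0935), WT replicate 3 (0.05, just above the threshold) or WT replicate 4 (0.0879), with log2 fold changes of -0.26 to -0.19 over all alternatives. It also lost the call with each array centred on its median (limma adjusted p = 0.0846). Among fibroblast markers 6 of 7 were lower by the same test and Postn rose, and among melanocyte markers 1 of 3 fell, and their part in the values of Dsg1a, Dsg1b and Evpl was not tested.

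**Figure D2:**
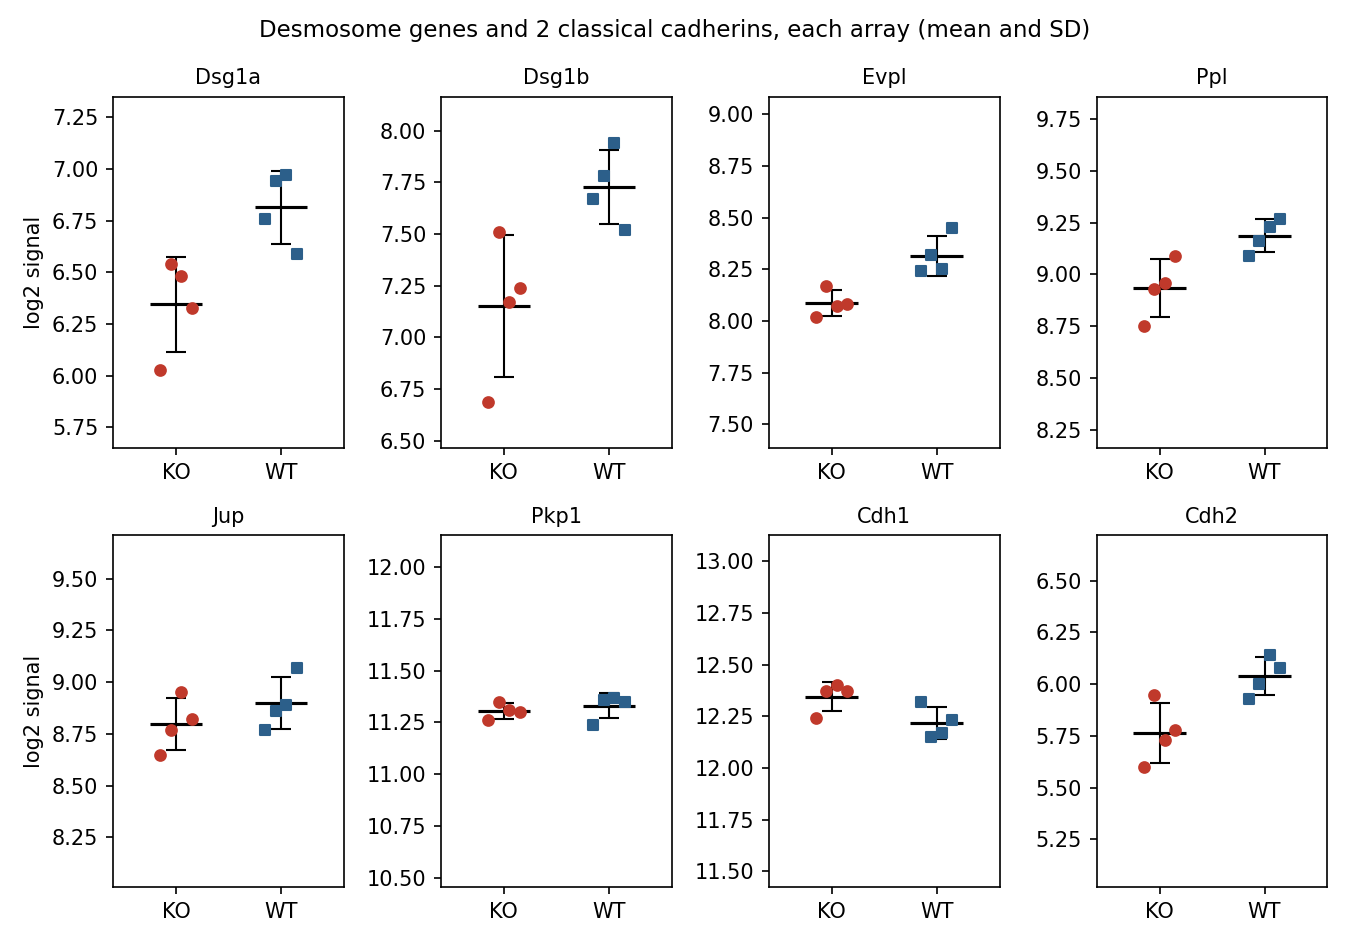
Log2 signal (vertical axis) of the 6 measured desmosome genes and of Cdh1 and Cdh2 in each KO array (red circles) and WT array (blue squares), with the mean and SD of each group (n = 4). Every panel spans the same range of log2 signal, replicates run from 1 to 4 from left to right, and the leftmost KO point is the lowest KO value in all 6 desmosome panels.

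None of the 11 cadherin genes passed the limma test, and only Cdh2 had an unadjusted p below 0.05. Cdh1 encodes E-cadherin, the cadherin of epithelial adherens junctions, and its signals were 12.24, 12.37, 12.40 and 12.37 in KO arrays, against 12.32, 12.15, 12.17 and 12.23 in WT arrays. KO replicate 1 lay within the WT values, while the other KO arrays lay above all WT arrays. The log2 fold change of Cdh1 was 0.12 (95% confidence interval -0.01 to 0.25; limma adjusted p = 0.265). It passed with an intensity trend in the variance prior (limma adjusted p = 0.0351), and its adjusted p was at most 0.462 over the 16 alternatives.

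Cdh2, the gene of N-cadherin, which neural and mesenchymal cells use, came closest to the threshold. It had 5.60, 5.95, 5.73 and 5.78 in KO arrays, against 5.93, 6.00, 6.14 and 6.08 in WT arrays, so only KO replicate 2 reached the WT values. Its log2 fold change was -0.27 ± 0.08 (SE, n = 4 per group; limma adjusted p = 0.0565), and it was -0.33 with an adjusted p of 0.0193 by limma without KO replicate 2. Over the 16 alternatives its limma adjusted p was 0.0193 to 0.139. A weaker probe set of Cdh2 gave -0.13 ± 0.09 (limma adjusted p = 0.508 over all probe sets). Falls were found for 6 of 7 fibroblast markers, with log2 fold changes of -1.02 for Twist2 to -0.48 for Lum, while Postn rose by 1.47 on the log2 scale, and their part in the value of Cdh2 was not tested.

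The other 9 cadherin genes are those of cadherins best known from other tissues, such as Cdh15 of muscle, Cdh16 of kidney, Cdh17 of intestine and Cdh19 of the Schwann cell lineage. Their mean signals were between 2.13 for Cdh18 and 4.85 for Cdh19. Their log2 fold changes were between -0.11 for Cdh16 and 0.06 for Cdh9. Of the 2 genes named as catenins, Ctnna2, the alpha-catenin of neurons, had a log2 fold change of 0.01, and Ctnnbl1, which encodes a nuclear protein tied to RNA splicing and no junction component, had 0.07 (limma adjusted p = 0.967 and 0.539).

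Among 18 protocadherin genes none passed in limma, and 1 was higher and 1 lower at an unadjusted p below 0.05, Pcdhgc4 and Pcdhb7. Protocadherins are cadherin-like proteins, and the clustered Pcdhb and Pcdhg genes are best known for the identity of single neurons. All 16 Pcdhb genes lay at mean signals of 2.55 to 5.10, with log2 fold changes of -0.37 to 0.16. Pcdhb7 had 2.88, 2.96, 2.90 and 2.78 in KO arrays, against 3.47, 3.09, 2.95 and 3.48 in WT arrays, and a log2 fold change of -0.37 ± 0.11 (SE, n = 4 per group; limma adjusted p = 0.0723). It passed without WT replicate 3 (limma adjusted p = 0.0164) and with an intensity trend (0.0251), and its adjusted p was up to 0.173 under the other alternatives that kept the gene. Pcdhgc4 had 3.41, 3.25, 3.29 and 3.37 in KO arrays, against 2.87, 3.13, 3.24 and 3.12 in WT arrays. It was the only member whose groups did not overlap without passing the test, with a log2 fold change of 0.24 ± 0.08 (SE; limma adjusted p = 0.091, and 0.05 to 0.199 over the alternatives). Of the 14 alternatives that kept Pcdhgc4, it passed in 1, without WT replicate 3, just below the threshold. Both genes lay below the lower quartile of signals. Pcdh1, a single protocadherin of epithelia, had a mean signal of 8.04 and a log2 fold change of -0.11 (95% confidence interval -0.31 to 0.09; limma adjusted p = 0.562). Probe sets of the related Pcdhb genes may share targets, and 3 protocadherin probe sets with several symbols were not used.

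Claudins supplied all members that rose: 3 of 17 claudin genes rose, and the other 14 were not past the limma threshold in either direction. Of all genes 4.47% rose. Cldn6, known as a claudin of embryonic epithelia, had 6.17, 6.13, 6.14 and 6.10 in KO arrays, against 5.62, 5.52, 5.36 and 5.61 in WT arrays. The KO values lay within a narrow band above all WT values. Its means were 6.14 ± 0.03 in KO and 5.53 ± 0.12 in WT arrays (SD, n = 4 per group), and its log2 fold change of 0.61 ± 0.06 (SE; limma adjusted p = 0.000105) was the largest rise of the 56 genes.

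Cldn7, a claudin found widely in epithelia, had 11.80, 11.66, 11.68 and 11.66 in KO arrays, against 11.34, 11.23, 11.35 and 11.31 in WT arrays. All KO values lay above all WT values, with KO replicate 1 the highest. The log2 fold change of Cldn7 was 0.39 ± 0.06 (SE, n = 4 per group; limma adjusted p = 0.000866). Cldn6 and Cldn7 passed under all 16 alternatives, with log2 fold changes of 0.55 to 0.64 and 0.36 to 0.43.

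Cldn4 encodes a claudin of suprabasal epidermis and simple epithelia that also binds a clostridial enterotoxin. It had 13.30, 13.24, 13.19 and 13.21 in KO arrays, against 13.07, 13.07, 12.97 and 13.05 in WT arrays. The groups did not overlap, and the log2 fold change was 0.20 ± 0.05 (SE, n = 4 per group; limma adjusted p = 0.0373). Its values lay near the top of the signal range of the arrays, whose highest values were near 13.9, and its call was the least stable of the rises. The removal of any 1 array lost it: the limma adjusted p was 0.107, 0.0945, 0.0532 and 0.0627 without KO replicates 1 to 4 and 0.063, 0.0658, 0.0913 and 0.0666 without WT replicates 1 to 4. With quantile normalization repeated its log2 fold change was 0.15 (limma adjusted p = 0.0941).

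The 14 other claudin genes had log2 fold changes of -0.20 to 0.12, none with a limma adjusted p below 0.24, and Cldn34d alone was lower at an unadjusted p below 0.05. Cldn23, with a mean signal of 7.48, had a log2 fold change of 0.11 (95% confidence interval -0.03 to 0.24). Cldn5 of endothelium, Cldn11 of myelin and testis, and Cldn16 and Cldn19 of kidney tubules had log2 fold changes of -0.02, -0.08, -0.02 and -0.09, at mean signals of 4.46, 2.32, 4.42 and 3.30. Of the fibroblast markers 6 of 7 fell and Postn rose in the same arrays, and of the Merkel cell markers Krt18 rose, with a log2 fold change of 0.68, while the other 3 did not pass. The part of these genes in the claudin values was not tested.

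The scaffold gene Tjp1 fell, while the median log2 fold change of the 17 claudin genes was -0.02. ZO-1, its product, binds the tails of claudins and links them to actin. Tjp1 had 10.09, 10.17, 10.14 and 10.15 in KO arrays, against 10.34, 10.34, 10.32 and 10.33 in WT arrays. Both groups were tight and did not overlap, with means of 10.14 ± 0.04 in KO and 10.33 ± 0.01 in WT arrays (SD, n = 4 per group). The log2 fold change was -0.20 ± 0.05 (SE; limma adjusted p = 0.0229). It lost the call without KO replicate 1 (limma adjusted p = 0.0753), KO replicate 3 (0.0532), WT replicate 1 (0.0572) or WT replicate 2 (0.0635), and with arrays centred on their median (0.0688), with log2 fold changes of -0.21 to -0.17 throughout. Tjp3, the gene of ZO-3, had 4.88, 4.89, 5.13 and 4.76 in KO arrays, against 5.16, 4.81, 5.02 and 5.13 in WT arrays, and its log2 fold change of -0.12 did not pass (limma adjusted p = 0.552).

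**Figure D3:**
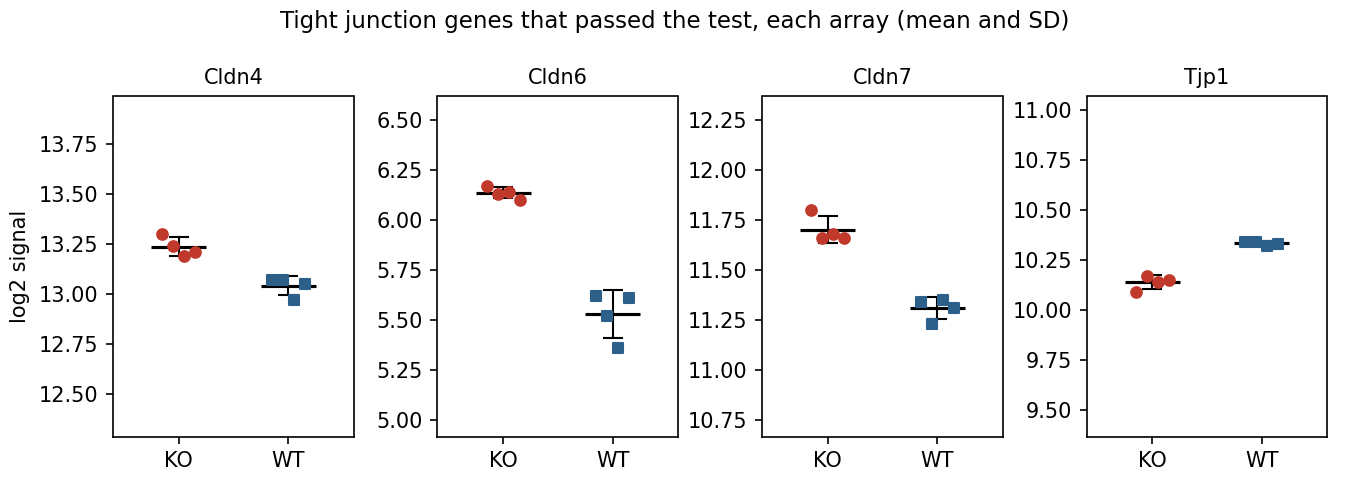
Log2 signal (vertical axis) of the 4 tight junction genes that passed the test in each KO array (red circles) and WT array (blue squares), with the mean and SD of each group (n = 4). Every panel spans the same range of log2 signal. KO values of Cldn4, Cldn6 and Cldn7 lie above all WT values, and those of Tjp1 lie below all WT values.

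With each array centred on its median, 3 members rose and 2 fell, in place of 3 and 4. Over all genes, 482 rose and 314 fell in that setting, in place of 415 and 412, and the median log2 fold change of all genes moved by 0.0267.

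Other genes of the same junctions and of their transcriptional control were taken from a list of 95 symbols, of which 28 were measured. In this list 3 rose, 5 fell and 20 did not pass, with a median log2 fold change of -0.03, against -0.01 over all genes, of which 8.9% passed. The groups did not overlap for 11 of the 28, against 15.9% of all genes. These shares depend on signal: of 4414 genes with a mean log2 signal of 5 or more, 1207 did not overlap, 373 rose and 332 fell. Marveld2, the gene of tricellulin, which seals the points where 3 cells meet, rose, as did Cldn4, Cldn6 and Cldn7. It had 8.29, 8.37, 8.35 and 8.28 in KO arrays, against 7.88, 7.90, 7.94 and 7.91 in WT arrays, a log2 fold change of 0.42 ± 0.05 (SE, n = 4 per group; limma adjusted p = 0.000219). Ildr1, whose product angulin-2 brings tricellulin to those points, fell instead, with 6.18, 6.31, 6.34 and 6.16 in KO arrays, against 6.74, 6.37, 6.69 and 6.47 in WT arrays (log2 fold change -0.32, limma adjusted p = 0.0442). The call of Ildr1 was lost under 9 of 16 alternatives, including each removal of a single array other than WT replicate 2, where its limma adjusted p reached 0.113.

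Of 13 measured adherens junction genes, 2 rose and 1 fell. Celsr1, an atypical cadherin of planar cell polarity, rose by 0.52 ± 0.06 on the log2 scale (SE, n = 4 per group; limma adjusted p = 0.000194). Fat2, a giant cadherin of epithelia, fell by 0.36 ± 0.05 (limma adjusted p = 0.00122). Ajuba, a LIM protein of adherens junctions, rose by 0.21 ± 0.05 (limma adjusted p = 0.0324), but passed in only 9 of 16 alternatives. None of 3 measured desmosome-associated genes passed in limma, and 2 were lower at an unadjusted p below 0.05, Cdsn and Krt5. The gene of corneodesmosin, Cdsn, had a log2 fold change of -0.32 (limma adjusted p = 0.0822), and Perp, a tetraspan protein of desmosomes, had -0.04.

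Among 6 measured regulators of epithelial junction genes, 3 fell and none rose by limma, also at an unadjusted p below 0.05, where 4 were lower. Of all genes 4.43% fell and 4.47% rose, and 1012 of 9294 were lower at an unadjusted p below 0.05. Grhl1, a grainyhead factor known in mouse skin to act on a desmoglein 1 gene, had 8.97, 9.12, 9.13 and 9.07 in KO arrays, against 9.49, 9.60, 9.64 and 9.55 in WT arrays. Every KO array lay well below every WT array, with a log2 fold change of -0.50 ± 0.06 (SE, n = 4 per group; limma adjusted p = 0.000217). Grhl3, a relative needed for the epidermal barrier, had 8.35, 8.43, 8.33 and 8.43 in KO arrays, against 8.76, 8.81, 8.91 and 8.87 in WT arrays (log2 fold change -0.45, limma adjusted p = 0.000279). Both passed under all 16 alternatives. Twist1, a factor of mesenchymal cells, had 4.10, 3.97, 4.24 and 4.10 in KO arrays, against 4.49, 4.29, 4.50 and 4.37 in WT arrays (log2 fold change -0.31, limma adjusted p = 0.0203), with every signal below the median of its array. Its call was lost without KO replicate 1, 2 or 4 or WT replicate 1 or 3, where the limma adjusted p reached 0.0607. The part of the fibroblast markers, of which 6 of 7 fell and Postn rose, in the value of Twist1 was not tested. Snai1, the gene of the Snail repressor, had a log2 fold change of -0.27 (limma adjusted p = 0.142), at a mean signal of 3.99.

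**Figure D4:**
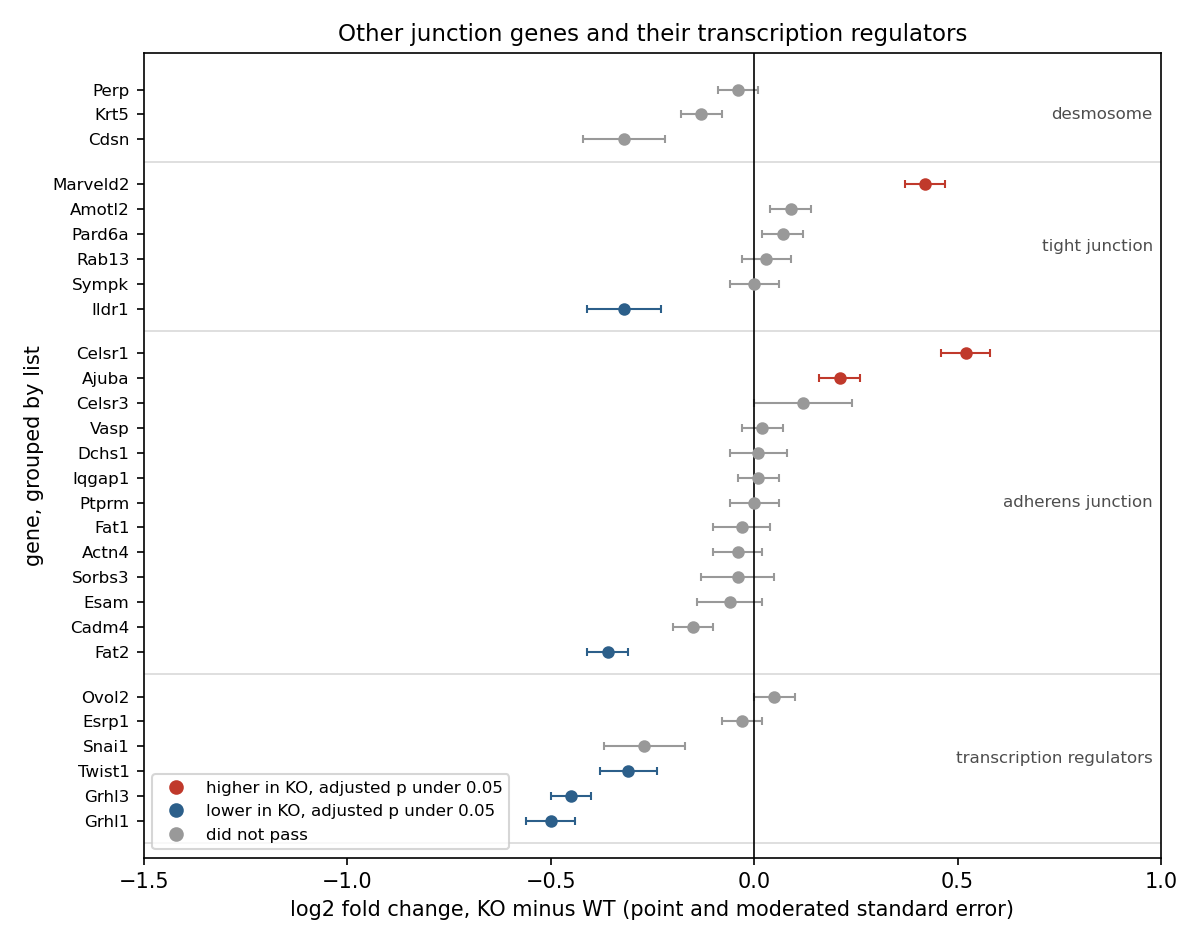
Log2 fold change, KO minus WT (horizontal axis), of the 28 measured genes of other junction components and transcription regulators, grouped by list on the vertical axis. Points are limma estimates with moderated SE, red where the gene rose, blue where it fell and grey where it did not pass. Celsr1 at 0.52 and Marveld2 at 0.42 lie farthest right, and Grhl1 at -0.50 and Grhl3 at -0.45 farthest left.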

How the data were processed

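The authors' deposited values, 1 for each of 11373 probe sets on each of 8 arrays, were read as log2 signals because of their range. How the authors summarised and normalized the scans, and against which build, is not given in the sources used here. Probe sets were named through the platform annotation: 9374 had 1 symbol, 479 several and 1520 none. The probe set with the highest mean represented each of 9294 genes, and no filter on low values was applied. KO and WT arrays (4 each) were compared in limma 3.58.1 (lmFit, then eBayes; R 4.3.3), with Benjamini-Hochberg adjustment over all genes and a threshold of 0.05. Array medians lay between 4.49 and 4.57, and no 2 arrays were duplicates. The number of arrays limits the precision, with a median SE of 0.07 over all genes.

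Members, gene lists, motifs and tests were chosen with earlier results of these data known. Values in every array are given for members that passed or did not overlap, for Cdh1, Jup, Pkp1, Tjp1 and Cldn4, and, chosen after their values were seen, for Ppl, Cdh2, Pcdhb7 and Tjp3. Other junction genes that passed are named, and Cdsn, Perp, Snai1, Ovol2 and Esrp1 were chosen after their values were seen. Alternatives were repeated quantile normalization, median centring, leaving out weak genes, other choices of probe set, an intensity trend, a replicate block and leaving out each array. Tested on simulated data with the spread of the real arrays (10 runs, 200 of 9294 genes changed), limma found 39.6% of the genes with a 1.2-fold change, 91.6% of those with 1.5-fold and 99.7% of those with 2-fold. False calls were 5.3% of the total. In the real comparison 827 genes passed, more than the 200 changed in the simulation, so the shares found may differ there. Same-numbered KO and WT arrays did not deviate together.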

Additional observations from a re-analysis of the deposited data

Results flagged for a closer look

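In the 15 members whose values in every array are given and the 8 other junction genes that passed, both groups were searched for an array far from the other 3, and 2 of 46 groups had one. Pkp1 in WT replicate 1 had 11.24, against 11.35 to 11.37 in the other WT arrays, a gap of 0.842 of the range of the group, where the limit is 0.829. Celsr1 in KO replicate 4 had 7.57, against 7.71 to 7.74 in the other KO arrays, a gap of 0.861 of the range. Chance alone gives such a gap in about 1 in 20 groups.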

How the results depend on the processing

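Over 16 alternatives, each of the 7 members that passed kept its direction. Cldn6 and Cldn7 passed in all, Dsg1a and Dsg1b in 11 each, Tjp1 in 10, Evpl in 8 and Cldn4 in 6. The number of members that fell was 4, but 2 with arrays centred on their median, 3 with the replicate block, 6 with the lowest 25% of genes or with genes under a mean signal of 5 left out, 7 with an intensity trend, and 0 to 5 without single arrays: 1, 5, 1 and 2 without KO replicates 1 to 4, and 1, 0, 2 and 3 without WT replicates 1 to 4. Without WT replicate 2, where limma called 0, 7 members were lower at an unadjusted p below 0.05. In the main fit 8 of the 56 members and 1012 of the 9294 genes were lower at that threshold. The count over all genes without WT replicate 2 was not taken. The number that rose was 3, but 4 with an intensity trend, 2 with quantile normalization repeated or with the replicate block, and 2 to 3 without single arrays. Counts over all genes moved too: 471 fell and 475 rose with the lowest 25% left out, in place of 412 and 415. With genes under a mean signal of 5 left out 487 fell and 568 rose, and with an intensity trend 544 fell and 580 rose. The median log2 fold change of the members was -0.034, -0.008 with arrays centred, and -0.060 to -0.019 without single arrays. The log2 fold change of Pkp1, which did not pass, turned to 0.01 with quantile normalization repeated and to 0.00 with arrays centred. Of the other junction genes 5 fell, but 8 with an intensity trend, 6 with genes under a mean signal of 5 left out, 4 with arrays centred and 3 to 5 without single arrays, and 3 rose, but 2 with the replicate block and 2 to 3 without single arrays. Without single arrays 288 to 350 of all genes rose and 305 to 352 fell, from fits on fewer arrays.

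Deviations of same-numbered arrays from their group means had correlations of 0.09, 0.00, 0.03 and -0.05, so the numbers were not taken to pair arrays. With the replicate block, 325 of all genes rose and 334 fell, and Cldn4, Evpl and Tjp1 lost their calls (limma adjusted p = 0.0731, 0.062 and 0.0737). Dsg1a, Dsg1b, Cldn6 and Cldn7 kept theirs (limma adjusted p = 0.0118, 0.0306, 0.00102 and 0.00399). Ppl, which did not pass in the main fit, passed with the block (limma adjusted p = 0.0339). Only replicate 1 of the KO arrays correlated best with its own number.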
